A study of Homo sapiens with 6 samples.

Results

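The miR-29 family was examined in small RNA libraries of A549 cells, a human lung adenocarcinoma line, in which METTL1 had been knocked down. The members were the 7 mature miRNAs named miR-29 in the count tables, from both arms of the 4 miR-29 hairpins, out of 2588 mature miRNAs listed. They were hsa-miR-29a-3p, hsa-miR-29b-3p and hsa-miR-29c-3p from the 3p arm, and hsa-miR-29a-5p, hsa-miR-29b-1-5p, hsa-miR-29b-2-5p and hsa-miR-29c-5p from the 5p arm, written below without the species prefix. METTL1 methylates guanosine at N7 in RNA to give m7G (N7-methylguanosine), and the study asked which miRNAs carry this mark. Both groups came from cells with a doxycycline-inducible shRNA against METTL1, and were harvested at day 5 with doxycycline present at 200 ng/ml. The 3 total RNA libraries were the input, and the 3 m7G-RIP libraries held RNA pulled down with an anti-m7G antibody. The study's methods describe lentiviral delivery of the shRNA vector and puromycin selection, and the labels do not say whether replicates were separate cultures, so p-values measure the spread between these libraries, which may be technical. No METTL1-proficient library and no IgG control was analysed here, so the values below compare m7G-RIP with total RNA within knockdown cells and do not measure an effect of METTL1.

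The miR-29 family is known for a guide strand on the 3p arm. Bases 2 to 8 of a miRNA, the seed, pair with target mRNAs, and the miR-29 3p seed is known to target collagens and other matrix genes, the anti-apoptotic gene MCL1 and the de novo DNA methyltransferases DNMT3A and DNMT3B. The 5p strands are passenger strands, which are usually degraded after the hairpin is cut. In lung cancer and lymphoma cells MYC is known to repress the miR-29 genes. A hexamer at the 3′ end of miR-29b, AGUGUU, is known as an element that directs miR-29b to the nucleus.

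The mature sequences are shown first because the family divides by them. RefSeq (GRCh38.p14) held a sequence for 7 of the 7 members, given here 5′ to 3′ with the seed in capitals.
miR-29a-3p: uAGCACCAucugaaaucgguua
miR-29b-3p: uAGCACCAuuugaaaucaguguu
miR-29c-3p: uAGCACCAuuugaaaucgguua
miR-29a-5p: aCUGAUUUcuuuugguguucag
miR-29b-1-5p: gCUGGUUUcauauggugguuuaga
miR-29b-2-5p: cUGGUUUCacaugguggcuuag
miR-29c-5p: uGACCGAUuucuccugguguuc
The 3 sequences of the 3p arm share the seed AGCACCA, which no other of 2281 named mature miRNAs with a sequence has. miR-29a-3p and miR-29c-3p are identical at 21 of 22 positions and differ by C10U, with positions counted from 1 at the 5′ end and the base of miR-29a-3p first. miR-29c-3p and miR-29b-3p differ over the shared 22 positions by G18A, U21G and A22U. These changes, with an added U at the 3′ end, give miR-29b-3p its nuclear hexamer, in capitals in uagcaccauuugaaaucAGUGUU, which 12 of the 2281 mature sequences (0.526%) contain.

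The 4 seeds of the 5p arm all differ. miR-29b-1-5p and miR-29b-2-5p are nonetheless near copies, identical at 20 of 22 aligned positions. They differ there by U11C and U19C, with positions and first base taken from miR-29b-1-5p, and miR-29b-1-5p has an added base at either end. The 5p arms also hold more G, the base that m7G modifies. G made up 33.3% of miR-29b-1-5p (8 of 24 bases), 31.8% of miR-29b-2-5p (7 of 22), 22.7% of miR-29a-5p and of miR-29c-5p, and 17.4% to 18.2% of the 3p members.

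The 4 hairpins lie in 2 clusters, both on the minus strand of GRCh38. MIR29A at chr7:130876747-130876810 and MIR29B1 at chr7:130877459-130877539 are 648 bases apart. They lie within LINC-PINT, a long non-coding RNA gene known as a p53 target. Its annotated exons cover all 81 bases of MIR29B1 and 2 bases of MIR29A. MIR29C at chr1:207801852-207801939 and MIR29B2 at chr1:207802443-207802523 are 503 bases apart and lie whole within exons of the long non-coding host gene MIR29B2CHG. The pair of miR-29b hairpins is shown because it yields a single 3p product and separate 5p products. The mature arms are in capitals.
MIR29B1: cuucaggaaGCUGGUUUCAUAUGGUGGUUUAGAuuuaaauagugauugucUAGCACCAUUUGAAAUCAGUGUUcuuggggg
MIR29B2: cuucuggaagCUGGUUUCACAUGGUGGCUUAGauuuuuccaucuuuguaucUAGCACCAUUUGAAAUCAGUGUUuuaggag
Reads of miR-29b-3p therefore cannot be assigned to a hairpin, whereas reads of the 5p arms can.

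The libraries held 9155690 to 10753443 miRNA counts in total RNA and 2649238 to 3106556 in m7G-RIP. Levels are given as CPM, counts scaled to a common library size after TMM normalisation and not divided by length. Where no library of a group held more than 3 counts of a member, that member was taken to be at the floor. The floor averaged 0.363 CPM for total RNA and 0.876 CPM for m7G-RIP libraries. Reads are PCR products without molecular identifiers, so limits and intervals made from counts cover counting error only. Of markers of other cells, those of leukocytes summed to at most 0.475 CPM in any library, with miR-142-3p, miR-142-5p and miR-223-3p at 0. Those of erythrocytes summed to 0 in total RNA and at most 1.57 CPM in m7G-RIP, with miR-144-3p and miR-486-5p at 0, and miR-122-5p of liver was at 0. Muscle markers summed to 9.07 to 11.8 CPM in the total RNA libraries, and to 0.535 to 117 CPM in m7G-RIP. The culture text of the m7G-RIP samples names the medium of another line, Caco-2, while titles and cell line labels name A549. Markers of intestinal epithelium, none of them at 0, summed to 21703 to 22303 CPM in total RNA and 3110 to 3405 CPM in m7G-RIP. They did not move together. The log2 ratio of m7G-RIP over total RNA was -2.87 for miR-192-5p, -2.43 for miR-194-5p and -3.27 for miR-215-5p, but 0.85 for miR-375. The part of these markers in the results was not tested.

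The guide strand miR-29a-3p was the most abundant member in both groups and was depleted in m7G-RIP. Total RNA held 484, 534 and 446 CPM in replicates 1, 2 and 3, from 4291, 4492 and 3393 counts. m7G-RIP held 48.6, 126 and 103 CPM, from 165, 401 and 384 counts. The groups did not overlap, and m7G-RIP replicate 1 was the lowest. The means were 488 ± 44 and 92.4 ± 39.7 CPM (SD, n = 3 each), and the level in m7G-RIP was 5.28-fold lower by edgeR's quasi-likelihood test (log2 ratio -2.40, SE 0.31, 95% interval -3.10 to -1.71, Benjamini-Hochberg adjusted p = 0.000176). Of the 620 miRNAs tested, 92 (14.8%) had a lower ratio, so miR-29a-3p lay in the lower part of the range without being at its end.

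miR-29b-3p, the member with the nuclear hexamer, was depleted to a similar degree. It stood at 27.8, 25.2 and 17.4 CPM in total RNA, from 246, 212 and 132 counts. In m7G-RIP it stood at 1.18, 8.16 and 5.89 CPM, from 4, 26 and 22 counts. The groups did not overlap, and m7G-RIP replicate 1 was again the lowest. The means of 23.4 ± 5.42 and 5.08 ± 3.56 CPM (SD, n = 3 each) differed 4.61-fold (log2 ratio -2.21, SE 0.62, 95% interval -3.60 to -0.81, edgeR adjusted p = 0.0149). All 6 counts of miR-29b-3p were even numbers. Among miRNAs with 2 hairpin genes, 206 of 270 nonzero counts (76.3%) were even, against 2295 of 4643 (49.4%) for miRNAs with 1 hairpin gene. If each read was counted at both hairpins, miR-29b-3p would stand beside other members at 13.9, 12.6 and 8.68 CPM in total RNA. In m7G-RIP it would stand at 0.589, 4.08 and 2.94 CPM. Fitted with its counts halved, its log2 ratio was -2.20, nearly unmoved, with an edgeR adjusted p of 0.0317 in place of 0.0149.

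miR-29c-3p, which differs from miR-29a-3p by a single base, was scarce. It had 29, 21 and 11 counts in total RNA (3.27, 2.50 and 1.45 CPM) and 0, 0 and 1 count in m7G-RIP (0, 0 and 0.268 CPM). It did not pass the filter on low counts and was at the floor in m7G-RIP, so no test is given. Pooled over libraries, 61 counts stood against 1, where 25.3 would be expected in m7G-RIP at equal CPM. The pooled level was 25.3-fold lower, with a counting interval of 4.37 to 1015. The direction was that of the other guide strands, and the size is known only within that wide interval.

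Summed over the 3p arm, the guide strands took 0.0425%, 0.0460% and 0.0386% of all miRNA counts in total RNA. They took 0.00638%, 0.0155% and 0.0131% in m7G-RIP. The highest m7G-RIP library was below the lowest total RNA library. The means were 0.0424% ± 0.00372 and 0.0116% ± 0.00471 (SD, n = 3 each; difference -0.0307 percentage points, exact two-sided permutation p = 0.1). With 3 libraries against 3 this test cannot go below 0.1. The size of this difference depends on miR-21-5p, the most abundant miRNA of total RNA (log2 ratio -3.82). With miR-21-5p left out of the counts the difference was -0.0686 percentage points.

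Among the passenger strands, miR-29b-1-5p stood higher in m7G-RIP without passing the test. It had 122, 183 and 107 counts in total RNA (13.8, 21.8 and 14.1 CPM) and 108, 71 and 112 counts in m7G-RIP (31.8, 22.3 and 30.0 CPM). The lowest m7G-RIP library was above the highest total RNA library by a narrow margin, 22.3 against 21.8 CPM. The means were 16.5 ± 4.53 and 28.0 ± 5.05 CPM (SD, n = 3 each), 1.70-fold apart. The log2 ratio was 0.76 (SE 0.33, 95% interval 0.0041 to 1.52, edgeR adjusted p = 0.0826). In the fit across all miRNAs, 66.3% had a lower ratio, so a value of this size was common. Scaled by library size alone the log2 ratio was 1.33 (adjusted p = 0.00855), and with limma-voom it was 0.79 (adjusted p = 0.0427). Over 13 alternatives it ran from 0.47 to 1.33 with adjusted p from 0.00855 to 0.386.

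miR-29b-2-5p, the near copy from the other miR-29b hairpin, was not seen in m7G-RIP. It had 12, 6 and 18 counts in total RNA (1.35, 0.713 and 2.37 CPM) and 0 counts in each of the 3 m7G-RIP libraries. At equal CPM 14.9 pooled counts would be expected there. With a pooled floor of 3 counts (0.291 CPM) in place of 0, the level was 4.98-fold lower. This fold leaves out the counting error of the total RNA reads and the spread between libraries, so it is no lower limit. It did not pass the filter and was not tested. Its share of the reads of both miR-29b 5p strands, a quantity chosen after the values were seen, was 8.96%, 3.17% and 14.4% in total RNA, with exact 95% binomial intervals of 4.71 to 15.1, 1.17 to 6.78 and 8.76 to 21.8. In m7G-RIP the share was 0 of 108, 0 of 71 and 0 of 112 reads, with exact 95% binomial intervals that reach 3.36%, 5.06% and 3.24%. The mean share fell by 8.84 percentage points (n = 3 each, exact two-sided permutation p = 0.1, the smallest possible). From the pooled total RNA ratio of 36 to 412 counts, 25.4 counts would be expected beside the 291 of miR-29b-1-5p in m7G-RIP. With 3 counts in place of 0, miR-29b-2-5p was 8.48-fold lower relative to its near copy. The pooled ratio was taken as exact although the total RNA shares ran from 3.17% to 14.4%, so this fold is no lower limit either. The interval of total RNA replicate 2 began at 1.17%, under the upper ends of all 3 m7G-RIP libraries, so a difference from that library was not detectable at this depth. That of total RNA replicate 1 began at 4.71%, under the upper end of m7G-RIP replicate 2 (5.06%).

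miR-29c-5p was low in m7G-RIP with a wide spread. Total RNA held 103, 120 and 77 counts (11.6, 14.3 and 10.1 CPM), and m7G-RIP held 21, 0 and 5 counts (6.19, 0 and 1.34 CPM). The groups did not overlap, and m7G-RIP replicate 1, the lowest library for miR-29a-3p and miR-29b-3p, was the highest here. The means were 12 ± 2.10 and 2.51 ± 3.25 CPM (SD, n = 3 each; log2 ratio -2.25, SE 1.03, 95% interval -4.59 to 0.098, edgeR adjusted p = 0.0951). Without m7G-RIP replicate 1 the log2 ratio was -4.23 (adjusted p = 0.0109). Over the alternatives that gave a value the adjusted p ran from 0.0109 to 0.219. miR-29c-5p passed the filter on low counts through its total RNA libraries, which favoured a low ratio. In total RNA the passenger strand of MIR29C had more counts, as deposited, than its guide strand. The 3p arm held 22%, 14.9% and 12.5% of the reads of the hairpin. miR-29a-3p by contrast held 99.8% ± 0.167 of the reads of MIR29A in total RNA (SD, n = 3). The 3p strands of these hairpins differ by a single base, and the methods allow 1 mismatch. How reads that fit both were assigned is not given, so the shares may not measure the strands themselves.

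miR-29a-5p was the scarcest member. It had 6, 15 and 0 counts in total RNA (0.677, 1.78 and 0 CPM) and 0 counts in each m7G-RIP library. The groups overlapped at 0. Pooled, 21 counts stood against 0 where 8.71 would be expected. With a pooled floor of 3 counts in place of 0, the level was 2.90-fold lower, or 1.28-fold without total RNA replicate 2, which held most of the reads. Neither fold is a lower limit, since the counting error of the total RNA reads is left out.

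**Figure D1:**
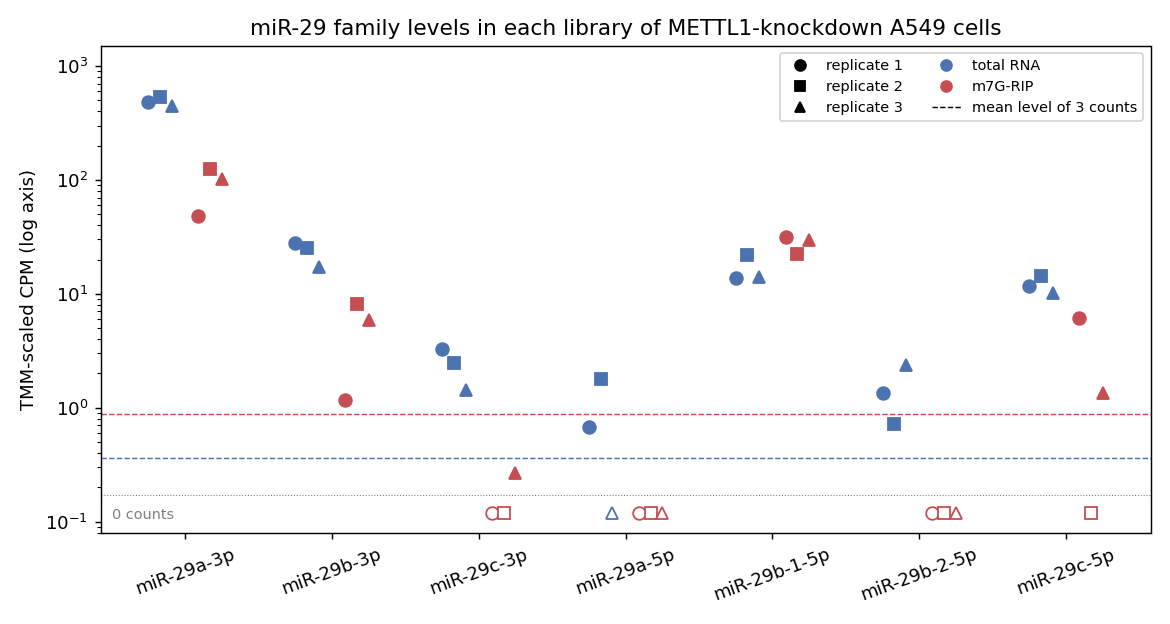
TMM-scaled CPM on a log axis for each of the 7 members, with total RNA libraries in blue, m7G-RIP libraries in red and marker shape for the replicate; open symbols on the bottom line are 0 counts and dashed lines are the mean level of 3 counts in each group. Of the members, miR-29b-1-5p alone has its 3 m7G-RIP libraries (22.3 to 31.8 CPM) above its 3 total RNA libraries (13.8 to 21.8 CPM).

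Counted over the family, 4 of 7 members passed the filter on low counts, which were miR-29a-3p, miR-29b-3p, miR-29b-1-5p and miR-29c-5p. Of these 4, edgeR called 2 depleted, where 29.2% of all miRNAs tested were called depleted, and 0 enriched, where 23.5% were. At an unadjusted p under 0.05, 1 member stood higher, miR-29b-1-5p, beside 27.4% of all tested. DESeq2 called 0 members enriched (25.8% of all tested) and limma-voom called 1 (27.1% of all tested). The m7G-RIP libraries were all below the total RNA libraries for 3 of the 4 tested members, against 36.5% of all tested. They were all above for 1, against 29.5%. Of the 3, miR-29b-3p and miR-29c-5p passed the filter through their total RNA libraries, as too few m7G-RIP libraries held enough counts. That favoured a low ratio for both, so their place below adds no support. Over all miRNAs 146 were enriched and 181 depleted, or 216 and 141 with scaling by library size alone, which moved the median log2 ratio over the whole test from -0.07 to 0.48. The ratios of miR-29a-3p and miR-29b-3p stayed below 0 and past the threshold in each of the 13 alternatives that gave a value for them, that scaling included. miR-29b-3p, with 4 counts in m7G-RIP replicate 1, could not be tested with a filter of at least 10 counts in every library.

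**Figure D2:**
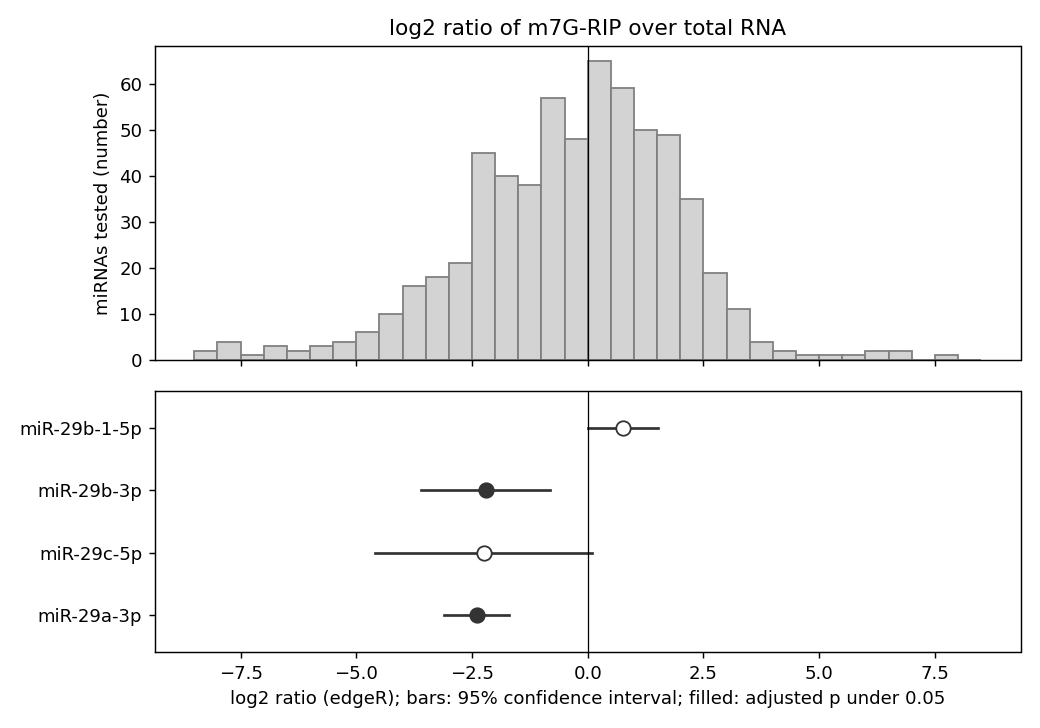
Top, number of tested miRNAs by log2 ratio of m7G-RIP over total RNA; bottom, the 4 tested members on the same axis with 95% confidence intervals, filled where the adjusted p was under 0.05. miR-29a-3p (-2.40) and miR-29b-3p (-2.21) lie left of 0 with intervals that do not reach it, the interval of miR-29c-5p reaches 0.098, and that of miR-29b-1-5p (0.76) starts at 0.0041.

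The order of the levels differed between the groups. In total RNA it was miR-29a-3p, miR-29b-3p, miR-29b-1-5p, miR-29c-5p, miR-29c-3p, miR-29b-2-5p and miR-29a-5p by mean CPM. The ranges of miR-29b-3p and miR-29b-1-5p overlapped, as did those of miR-29b-1-5p and miR-29c-5p, those of miR-29c-3p and miR-29b-2-5p, and those of miR-29b-2-5p and miR-29a-5p. The remaining neighbours in that order did not overlap. In m7G-RIP the order began with miR-29a-3p and then miR-29b-1-5p, whose ranges did not overlap. miR-29b-3p came next, below the range of miR-29b-1-5p, and overlapped with miR-29c-5p. With the counts of miR-29b-3p halved, its total RNA range of 8.68 to 13.9 CPM overlapped with those of miR-29b-1-5p and of miR-29c-5p.

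Read as a composition, miR-29a-3p fell from 89.7% ± 0.974 of all family counts in total RNA to 69.7% ± 12.9 in m7G-RIP (SD, n = 3 each; exact two-sided permutation p = 0.1). The share of miR-29b-1-5p rose by slightly more than that of miR-29a-3p fell. The CPM of miR-29b-1-5p was only 1.70-fold higher in m7G-RIP and did not pass the edgeR test (adjusted p = 0.0826). Its share, a quantity chosen after the values were seen, was 2.54%, 3.62% and 2.86% in total RNA, with exact 95% binomial intervals of 2.11 to 3.02, 3.13 to 4.18 and 2.35 to 3.45. In m7G-RIP it was 36.2%, 14.3% and 21.4%, with intervals of 30.8 to 42.0, 11.3 to 17.6 and 17.9 to 25.1. No interval of either group reached into the other group. The means were 3.01% ± 0.558 and 24.0% ± 11.2 (SD, n = 3 each; difference 20.9 percentage points, exact two-sided permutation p = 0.1, the smallest possible). m7G-RIP replicate 1, with the fewest family counts (298, against 498 and 524), had the highest share.

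**Figure D3:**
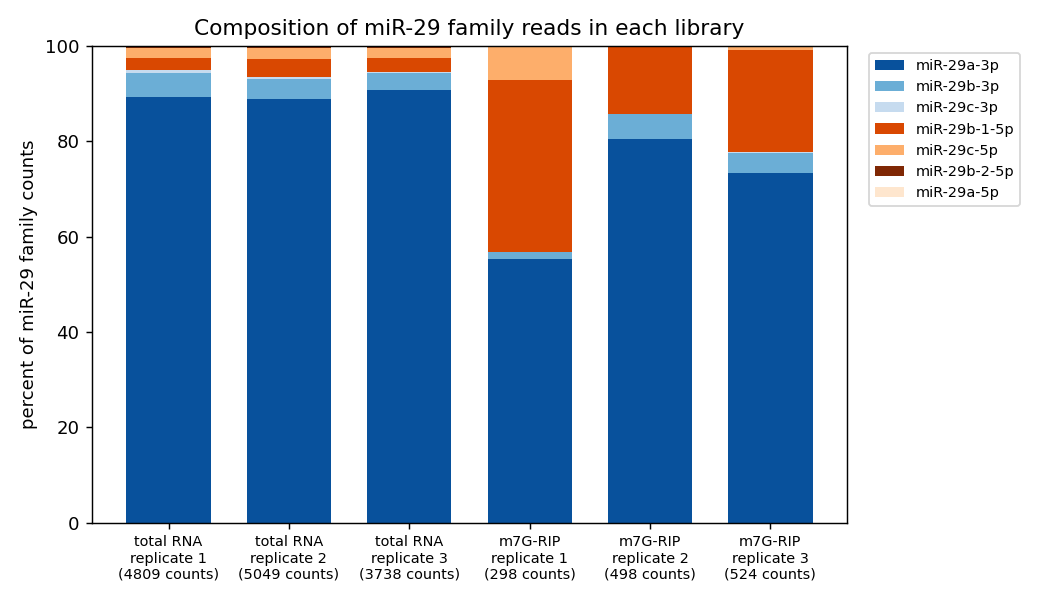
Percent of miR-29 family counts taken by each member in each library, with the 3p members in blues and the 5p members in oranges and the number of family counts under each bar. The miR-29b-1-5p segment covers 2.54% to 3.62% of the total RNA bars and 14.3% to 36.2% of the m7G-RIP bars.

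Ratios between members within a library do not depend on scaling between libraries. Of 8 pairs chosen at the outset, 6 held a member at the floor and gave no ratio, and 2 more pairs were added after the values were seen, so p-values were adjusted over 4 pairs. miR-29b-3p, pooled over both miR-29b hairpins, over miR-29b-1-5p of MIR29B1 had log2 ratios of 1.01, 0.21 and 0.30 in total RNA and of -4.59, -1.43 and -2.32 in m7G-RIP. By the counts as deposited, this pooled guide strand was above miR-29b-1-5p in every total RNA library and below it in every m7G-RIP library. The mean fell by 3.29 on the log2 scale, 9.78-fold, from 0.51 ± 0.44 to -2.78 ± 1.63 (SD, n = 3 each; exact two-sided permutation p = 0.1, adjusted p = 0.133). The shift was -2.38 without m7G-RIP replicate 1 and -3.96 without m7G-RIP replicate 2. With miR-29b-3p halved the order in total RNA would not hold: 13.9, 12.6 and 8.68 CPM of miR-29b-3p would stand beside 13.8, 21.8 and 14.1 CPM of miR-29b-1-5p.

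miR-29a-3p over miR-29b-1-5p, an added pair, shifted by a like amount, from 4.91 ± 0.27 to 1.62 ± 0.95 (log2, SD, n = 3 each; shift -3.28, 9.74-fold, exact permutation p = 0.1, adjusted p = 0.133). miR-29c-5p over miR-29b-1-5p, the other added pair, compared passenger strands with each other. It shifted from -0.44 ± 0.18 to -4.62 ± 2.42 (log2, SD, n = 3 each; shift -4.18, 18.1-fold, exact permutation p = 0.1, adjusted p = 0.133), with the widest spread of the 4 pairs. Its value in m7G-RIP replicate 2 rests on 0 counts of miR-29c-5p and so on the pseudocount of 0.5. The shift was -2.90 without that library, -5.32 without m7G-RIP replicate 1 and -3.80 with a pseudocount of 1. For these 3 pairs the groups did not overlap, and no pair could pass 0.05 with 3 libraries against 3. The 3 pairs share miR-29b-1-5p and are not independent of each other.

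The ratio of the 2 abundant guide strands had the same mean in both groups. miR-29b-3p over miR-29a-3p was -4.40 ± 0.28 in total RNA and -4.41 ± 0.69 in m7G-RIP (log2, SD, n = 3 each; shift -0.0049, exact permutation p = 1). The m7G-RIP libraries lay on either side of the total RNA libraries, at -5.20, -3.92 and -4.09 against -4.12, -4.40 and -4.68. A shift between the guide strand with the nuclear hexamer and the one without it was not detectable within this spread.

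**Figure D4:**
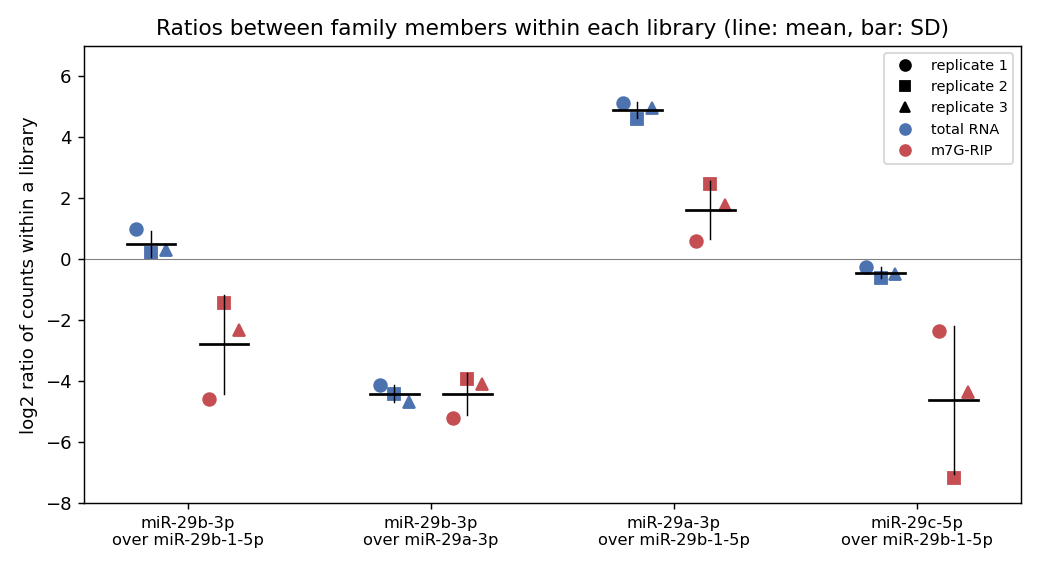
Log2 ratio of counts of member pairs within each library (pseudocount 0.5), with total RNA in blue, m7G-RIP in red, marker shape for the replicate, and the mean and SD of each group as a line and a bar. Ratios to miR-29b-1-5p are lower in the m7G-RIP libraries by 3.28 to 4.18, and the ratio of miR-29b-3p to miR-29a-3p lies at the same mean in both groups.

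Arm differences of this size were not rare among other hairpins. Outside the family 142 pairs of arms were tested on both arms, and the 3p arm had the lower log2 ratio in 75 of them and the higher in 66. The median difference of 3p minus 5p was -0.24, with quartiles of -1.72 and 1.34. For miR-29b-3p, pooled over both its hairpins, minus miR-29b-1-5p it was -2.97 in the same fit, and 16 of the 142 pairs (11.3%) lay lower.

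Across 557 tested miRNAs with a sequence (89.8% of 620), G content of the mature miRNA and log2 ratio increased together, with Pearson's r = 0.410 and Spearman's rho = 0.436. This is a description across miRNAs of the same 6 libraries, which share depth and scaling and are not independent replicates. The tested members fell on either side of the median G content and did not follow the order of G content beyond that. miR-29a-3p, miR-29b-3p and miR-29c-5p lay under that median of 27.8% and had negative ratios, and miR-29b-1-5p lay above it with a positive ratio. miR-29b-1-5p and miR-29b-2-5p also each hold 3 runs of at least 2 G, where the other members hold at most 1. A split at 3 runs was chosen after the sequences of the members were seen. The 107 tested miRNAs with 3 or more runs had a median log2 ratio of 1.55, with 53 enriched and 6 depleted. The 450 with fewer had a median of -0.47, with 82 enriched and 150 depleted. miR-29b-2-5p, with 31.8% G and 3 runs, was at 0 in the m7G-RIP libraries, but it was scarce in total RNA and has no ratio. Whether G content or runs of G had a part in these ratios was not tested.

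**Figure D5:**
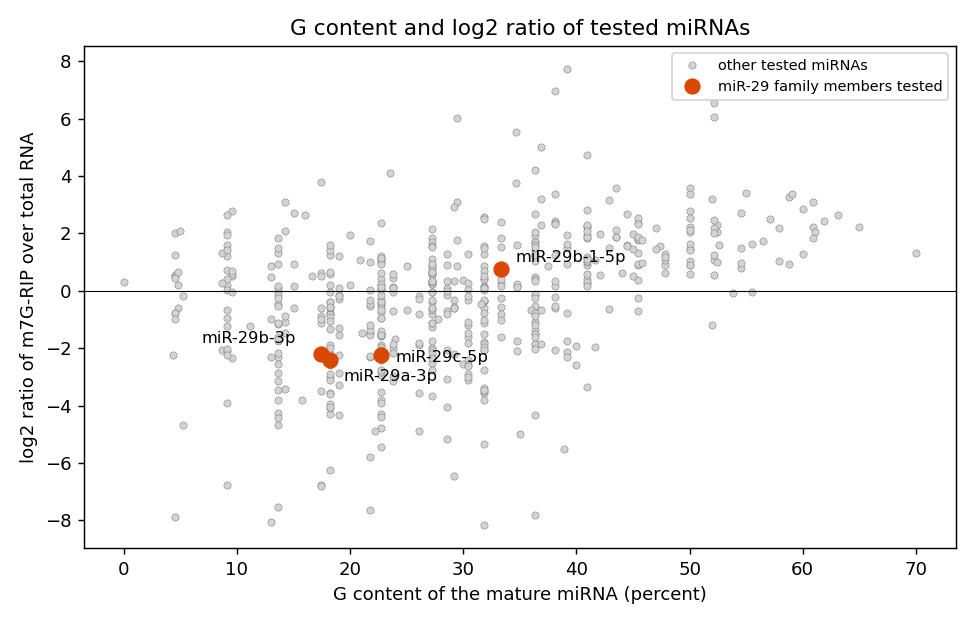
G content of the mature miRNA in percent against the log2 ratio of m7G-RIP over total RNA for the 557 tested miRNAs with a sequence, with the 4 tested members in orange. miR-29b-1-5p sits at 33.3% G and 0.76, and the other members sit at 17.4% to 22.7% G and between -2.40 and -2.21.

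The miRNAs whose profile over the 6 libraries was most like that of miR-29a-3p, by Euclidean distance of centred log2 CPM among 196 tested miRNAs holding 100 or more counts in each library, were miR-17-5p (distance 0.443), miR-93-5p (0.744) and miR-452-5p (0.766). Their log2 ratios were -2.58, -2.10 and -2.35. miR-17-5p and miR-93-5p are members of the miR-17 family. Those most like miR-29b-1-5p were miR-92b-5p (0.483), miR-4485-3p (0.566) and miR-1292-5p (0.670). Their log2 ratios of 0.95, 0.88 and 0.63 passed the test in edgeR (adjusted p = 0.00160, 0.0274 and 0.0273). Neighbours of both members were chosen by profile over the same libraries, so like ratios followed from the choice. miR-29b-1-5p, which did not pass, held 71 counts in m7G-RIP replicate 2, under the 100 asked of its neighbours. A difference between it and them was not tested.

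Other miRNAs known to be repressed by MYC did not move one way. Of 21 listed, 19 were tested, of which 4 were enriched, 9 were depleted and 6 did not pass, where 23.5% of all tested miRNAs were enriched and 29.2% depleted. Their median log2 ratio was -0.71, beside -0.07 over all tested. The range ran from miR-34a-5p, a p53-induced miRNA (log2 ratio -4.32, edgeR adjusted p = 1.8e-05), to let-7a-5p of the let-7 tumour suppressor family (1.19, edgeR adjusted p = 0.000266). Of 6 miRNAs known to target DNA methyltransferases or EZH2, as miR-29 does the former, 0 were enriched, 3 were depleted and 3 did not pass, beside the same 23.5% and 29.2% over all tested, with a median of -0.35. The lowest was miR-101-3p, which targets EZH2, at -4.33, and the highest was miR-143-3p, which targets DNMT3A, at 1.28 (edgeR adjusted p = 0.180).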

How the data were processed

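Small RNA libraries of total RNA and m7G-RIP (3 each) from METTL1-knockdown A549 cells were analysed, grouped by sample title. The authors deposited raw read counts per mature miRNA, with no normalisation. Per the authors' methods, libraries were made with a small RNA kit, reads were trimmed with Trimmomatic and aligned with STAR in end-to-end mode (GRCh38, 1 mismatch, up to 10 loci), and featureCounts counted miRBase 22 mature miRNAs. The submitters' processing notes name Bowtie2 in place of STAR. How reads with several alignments were counted is not given in the sources used here, which bears on the levels of miR-29b-3p and miR-29c-3p.

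The test was the robust quasi-likelihood F test of edgeR 4.0.16 (R 4.3.3; TMM, default expression filter by group, no replicate block), with Benjamini-Hochberg adjustment over all miRNAs tested and a threshold of 0.05. SE was the log2 ratio divided by the square root of F. Replicates differed by more than counting noise and were kept separate. Ratios and shares within libraries were compared by exact two-sided permutation of libraries in scipy 1.17.1. Alternatives were DESeq2 1.42.0, limma-voom (limma 3.58.1), other scalings and filters, a 2-fold minimum, a replicate block, leaving out each library and, added after the data were seen, halved miR-29b-3p counts. The code was tested on simulated counts.

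The members, lists and rules were chosen with earlier results of these data known. Named miRNAs were the 7 members, the 3 most alike to miR-29a-3p and miR-29b-1-5p, and the highest and lowest of each list. Sequences and hairpin positions came from RefSeq (GRCh38.p14) and overlapping genes from GENCODE 44, on the same build. Total counts of 2649238 to 10753443 per library set the precision, and 3 counts were taken as the floor.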

Additional observations from a re-analysis of the deposited data

How the results depend on the processing

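The log2 ratios of miR-29a-3p (-2.85 to -1.87) and miR-29b-3p (-2.86 to -1.68, adjusted p up to 0.0411) kept their direction and stayed past the threshold in the 13 alternatives that gave a value. The 13 differ, since miR-29b-3p could not be fitted under the filter of 10 counts per library and was fitted with its own counts halved. miR-29b-1-5p stayed above 0 (0.47 to 1.33) and passed in 2 of 13, with library size alone (1.33) and with limma-voom (0.79). The count of members enriched was 1 under each of these in place of 0, where 216 and 168 of all 620 miRNAs tested were enriched. miR-29c-5p stayed below 0 and passed in 3 of 12, at -2.45 with no filter (adjusted p = 0.0115), at -3.36 with limma-voom (adjusted p = 0.0182) and at -4.23 without m7G-RIP replicate 1, where leaving out a library gave -4.23 to -1.85. It too could not be fitted with at least 10 counts in every library, where 1 member was depleted beside 133 of all 359 miRNAs tested. With limma-voom and without m7G-RIP replicate 1, miR-29c-5p entered the test through its total RNA counts, so those passes add no support. Leaving out a library gave 2 to 5 depleted members, with 5 without m7G-RIP replicate 1 and 4 without m7G-RIP replicate 2. Over all miRNAs tested, 230 of 773 and 245 of 778 were depleted in those fits. Without m7G-RIP replicate 3 it was 235 of 756, and without total RNA replicate 1, 2 or 3 it was 149 of 598, 150 of 594 and 155 of 596. With an m7G-RIP library left out, the filter let in members at the floor through their total RNA counts alone. The direction of a call for such a member was fixed by that filter, so these calls add no support. miR-29c-3p then passed without replicate 1, 2 or 3 and miR-29b-2-5p without replicate 1 or 2, with adjusted p from 0.0257 to 0.0491, and miR-29b-2-5p did not pass without replicate 3 (adjusted p = 0.0529). With no filter and all 6 libraries, miR-29c-3p, miR-29b-2-5p and miR-29a-5p were tested and did not pass (adjusted p = 0.0927, 0.0946 and 0.190). Apart from library size, these changes' cause was not tested. The shift of miR-29b-3p against miR-29a-3p changed sign around 0, at 0.059 with pseudocount 1 and from -0.25 to 0.39 with a library left out. The log2 ratios of these members and the 6 pairs with one of them had no value in the test as reported, so no change of theirs is given. Counts below about 3 per library limit what can be said of these members.

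Deviations of same-numbered libraries correlated at -0.0433, -0.101 and 0.0641 over all tested miRNAs. Over the 306 with a mean of at least 100 counts they correlated at 0.0734, 0.0784 and 0.0984, just under the 0.1 asked of every pair, so no pairing by number was assumed. With the replicate block the log2 ratios were -2.49 for miR-29a-3p, -2.40 for miR-29b-3p (adjusted p = 0.0257), 0.78 for miR-29b-1-5p (adjusted p = 0.158) and -2.98 for miR-29c-5p (adjusted p = 0.0878). The block changed no call of a member, and 122 miRNAs were enriched and 175 depleted over all tested.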
